A study of Mus musculus with 8 samples.

Results

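The genes described here encode chaperones of the endoplasmic reticulum (ER) and regulators of the unfolded protein response: Hspa5, Xbp1, Hsp90b1, Pdia4, Calr, Ddit3, Atf4, Herpud1, Sdf2l1 and Creld2. They were found by gene symbol in a table of 22206 probe sets, of which 19572 carry 1 gene symbol. Of the 10 genes, 9 were found, with 10 probe sets in all, since Ddit3 has 2. Pdia4, a disulfide isomerase of the ER, has no probe set under its symbol in the annotation used here and no value below. RNA came from brain tissue of male mice aged 12 weeks that had received clothianidin at 50 mg/kg/day or vehicle for 2 weeks. Clothianidin is a neonicotinoid insecticide that acts on nicotinic acetylcholine receptors, and the submitters describe the dose as one with no observed adverse effect. The 8 Affymetrix arrays form 4 groups of 2: cerebral cortex of vehicle mice (arrays 1 and 6), cortex of clothianidin mice (3 and 6), hippocampus of vehicle mice (1 and 6) and hippocampus of clothianidin mice (3 and 6). The vehicle was 1% DMSO, and a strain is not given in the labels. Nothing in the labels says that arrays of a group came from separate animals, and the p-values then reflect how far these samples lie apart, a spread that may be technical. All values are log2 expression values per probe set, normalized before deposit, and the small number of arrays limits the precision of each comparison.

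When unfolded proteins collect in the ER lumen, the sensors IRE1, PERK and ATF6 are released or activated. IRE1 splices Xbp1 mRNA into the form that encodes an active transcription factor, PERK slows translation while favouring that of Atf4, and cleaved ATF6 enters the nucleus. These factors raise transcription of lumenal chaperones and of the machinery that removes misfolded proteins, and prolonged signalling induces the death-associated factor CHOP, the product of Ddit3. In the brain, neurons and secretory epithelia such as choroid plexus make large amounts of membrane and secreted protein and depend on this folding capacity.

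ATF6 and XBP1 bind the ER stress response element (ERSE), in which CCAAT and CCACG are separated by 9 bases, and the shorter ERSE-II, in which ATTGG and CCACG are separated by 1 base. Promoter windows of 250 bases before to 50 bases after the transcription start, from RefSeq on build GRCm38.p6, were searched on both strands for these elements, and all 10 genes had a window. ERSE lay in 39 of 32851 windows (0.119%) and ERSE-II in 12 (0.0365%), and the matches in the genes described here are printed because the family is known for these elements. Each site is written 5′ to 3′ in the direction of the element, with its fixed bases in capitals.
Hspa5, chr2:34772025-34772043, gene strand: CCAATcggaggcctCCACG
Hsp90b1, chr10:86705638-86705656, gene strand: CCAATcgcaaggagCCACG
Hsp90b1, chr10:86705533-86705551, opposite strand: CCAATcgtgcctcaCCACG
Calr, chr8:84847075-84847093, opposite strand: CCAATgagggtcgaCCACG
Creld2, chr15:88819520-88819538, opposite strand: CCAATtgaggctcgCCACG
Herpud1 (ERSE-II), chr8:94386377-94386387, gene strand: ATTGGgCCACG

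The Hspa5 site began 65 bases before the start, the Herpud1 site 52, those of Hsp90b1 212 and 107, that of Calr 162 and that of Creld2 126. ERSE or ERSE-II was therefore found in 5 of the 10 genes, against 49 of 27025 genes in the table; the members were proposed as a family known for this element, so the share describes the list. The windows of Xbp1, Pdia4, Ddit3, Atf4 and Sdf2l1 held neither. None of the 10 windows held TGACGTGG, the element named UPRE (222 of all windows, 0.676%), or the C/EBP-ATF element TGATGNAAT through which ATF4 acts (317 windows, 0.965%). An absent match says only that these letters are not in that window.

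**Figure D1:**
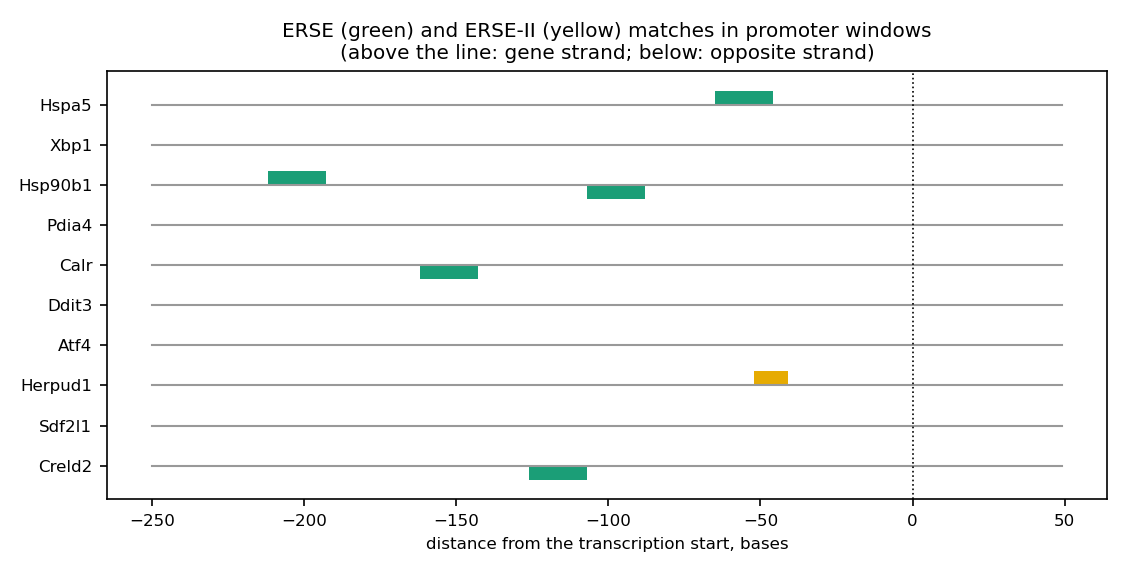
ERSE and ERSE-II matches in the promoter windows of the 10 genes, by distance from the transcription start in bases. Blocks above a line lie on the gene's strand and blocks below it on the opposite strand; Hsp90b1 holds 2 matches, Hspa5, Calr, Creld2 and Herpud1 hold 1 each, and the other windows hold none.

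Hspa5 and Xbp1, the genes whose exposed arrays lay below the controls in both tissues, have one window with the element and one without. The window of Hspa5 (chr2:34771840-34772139, plus strand; gene at chr2:34772090-34776529) is shown first, with the ERSE in capitals, followed by that of Xbp1 (chr11:5520391-5520690, plus strand; gene at chr11:5520641-5525993).
Hspa5: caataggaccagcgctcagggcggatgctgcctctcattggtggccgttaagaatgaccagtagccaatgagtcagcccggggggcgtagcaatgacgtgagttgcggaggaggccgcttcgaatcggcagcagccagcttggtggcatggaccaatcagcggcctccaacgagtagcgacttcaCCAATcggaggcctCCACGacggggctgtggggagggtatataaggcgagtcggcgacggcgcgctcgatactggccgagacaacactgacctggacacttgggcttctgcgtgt
Xbp1: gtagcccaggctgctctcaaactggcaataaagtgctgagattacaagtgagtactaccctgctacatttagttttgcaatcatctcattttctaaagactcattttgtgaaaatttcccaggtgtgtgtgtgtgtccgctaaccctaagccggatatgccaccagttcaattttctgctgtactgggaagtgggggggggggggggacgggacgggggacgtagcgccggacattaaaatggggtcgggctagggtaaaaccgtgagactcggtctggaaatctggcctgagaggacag

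Marker genes separated the labelled tissues. Over 7 hippocampal neuron markers the mean log2 value was 4.82 to 4.97 in cortical and 8.74 to 9.23 in hippocampal arrays. All 7 were called higher in hippocampus in both arms. The 9 cortical neuron markers averaged 10.8 to 11.47 in cortex and 8.96 to 9.57 in hippocampus. Of these 9, 7 were called lower in hippocampus in controls and 4 in exposed mice, where 2 had a higher mean in hippocampus. Some of these markers also moved with exposure without passing limma's threshold. The cortical neuron markers had a median difference of -0.46 in cortex and of 0.525 in hippocampus. In cortex 4 of 9 lay below the controls without overlap, beside 21.4% of all probe sets. In hippocampus 5 of 9 lay above them without overlap, and the share of all probe sets that did so was not counted. In cortex the medians were -0.305 for 7 microglial and -0.31 for 7 oligodendrocyte markers. Of each, 4 lay below without overlap, beside the same 21.4% of all probe sets. Array medians were 5.21 to 5.25 in cortex and 5.37 to 5.4 in hippocampus. Both control groups held 1 array high in choroid plexus markers. Ttr, the transthyretin gene that marks this epithelium, read 19.51 in hippocampal control 1, 15.41 in cortical control 6 and 4.17 to 7.76 in the other 6 arrays. The mean of the 9 choroid plexus markers tested (12 listed) was 11.54 in hippocampal control 1, 6.53 in cortical control 6 and 4.26 to 5.07 elsewhere. The mean of 6 ependymal markers was 7.77 in hippocampal control 1 and 5.58 to 6.40 in the others. All 9 choroid plexus markers were lower in exposed than in control hippocampus on average, as were all 6 ependymal markers (median -0.87). For 10 markers of meninges and fibroblasts the median exposure difference was 0.4525 in cortex (3 lower, 7 higher) and -0.1775 in hippocampus (6 lower, 4 higher). Their mean ran from 6.946 in exposed hippocampal array 6 to 8.464 in hippocampal control 1. The part of these cells in the differences below was not tested. Single-gene hippocampal exposure differences that turned or moved by over 1.5 times without hippocampal control 1 carry that value where they first appear. For Dnajb11, Ero1b, Syvn1 and Canx, and for medians of marker, pathway and promoter lists, no such value is given. In tissue RNA, fewer cells of a type and less RNA per cell cannot be told apart.

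Hspa5 encodes BiP, the main Hsp70 chaperone of the ER lumen and the protein that holds the stress sensors inactive. Its log2 values in hippocampus were 16.66 and 16.43 in the controls and 15.54 and 15.43 in the exposed arrays. In cortex they were 15.66 and 15.84 in the controls and 15.45 and 15.28 in the exposed arrays. Both exposed arrays lay below both controls in each tissue. The hippocampal difference, exposed minus control, was -1.06 (SE 0.193, 95% interval -1.48 to -0.64), a 2.085-fold lower level, and the cortical difference was -0.385 (SE 0.193, interval -0.81 to 0.04). With limma and Benjamini-Hochberg adjustment over 14804 probe sets, neither passed the threshold of 0.05 (adjusted p = 0.306 in hippocampus and 0.808 in cortex).

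By group mean, Hspa5 was highest in control hippocampus (16.55), followed by control cortex (15.75), exposed hippocampus (15.48) and exposed cortex (15.36). The arrays of the 2 exposed groups overlapped, and all other neighbours in this order were separated. The hippocampal minus the cortical difference was -0.675 (SE 0.274, unadjusted p = 0.0297), which did not pass over all probe sets (limma adjusted p = 0.998). Without hippocampal control 1, the array with the highest Ttr, the hippocampal difference of Hspa5 was -0.945.

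Xbp1 encodes the transcription factor produced after splicing by IRE1. The table holds 1 value per array for the gene, in which spliced and unspliced mRNA cannot be told apart. In hippocampus the controls read 12.48 and 12.35 and the exposed arrays 11.31 and 11.08. Cortical controls read 13.01 and 13.31, and exposed cortex 12.63 and 12.3. As for Hspa5, both exposed arrays lay below both controls in each tissue. The difference was -1.22 in hippocampus (SE 0.231, interval -1.72 to -0.72, 2.33-fold lower) and -0.695 in cortex (SE 0.231, interval -1.20 to -0.19). Neither passed the threshold after limma's adjustment over all probe sets (adjusted p = 0.306 and 0.740). The exposure differences in the 2 tissues differed by -0.525 (SE 0.326, adjusted p = 0.998), with an interval of -1.24 to 0.19. Control cortex was highest (13.16), exposed cortex (12.46) and control hippocampus (12.41) overlapped, and exposed hippocampus was lowest (11.2). Without hippocampal control 1 the hippocampal difference was -1.155.

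**Figure D2:**
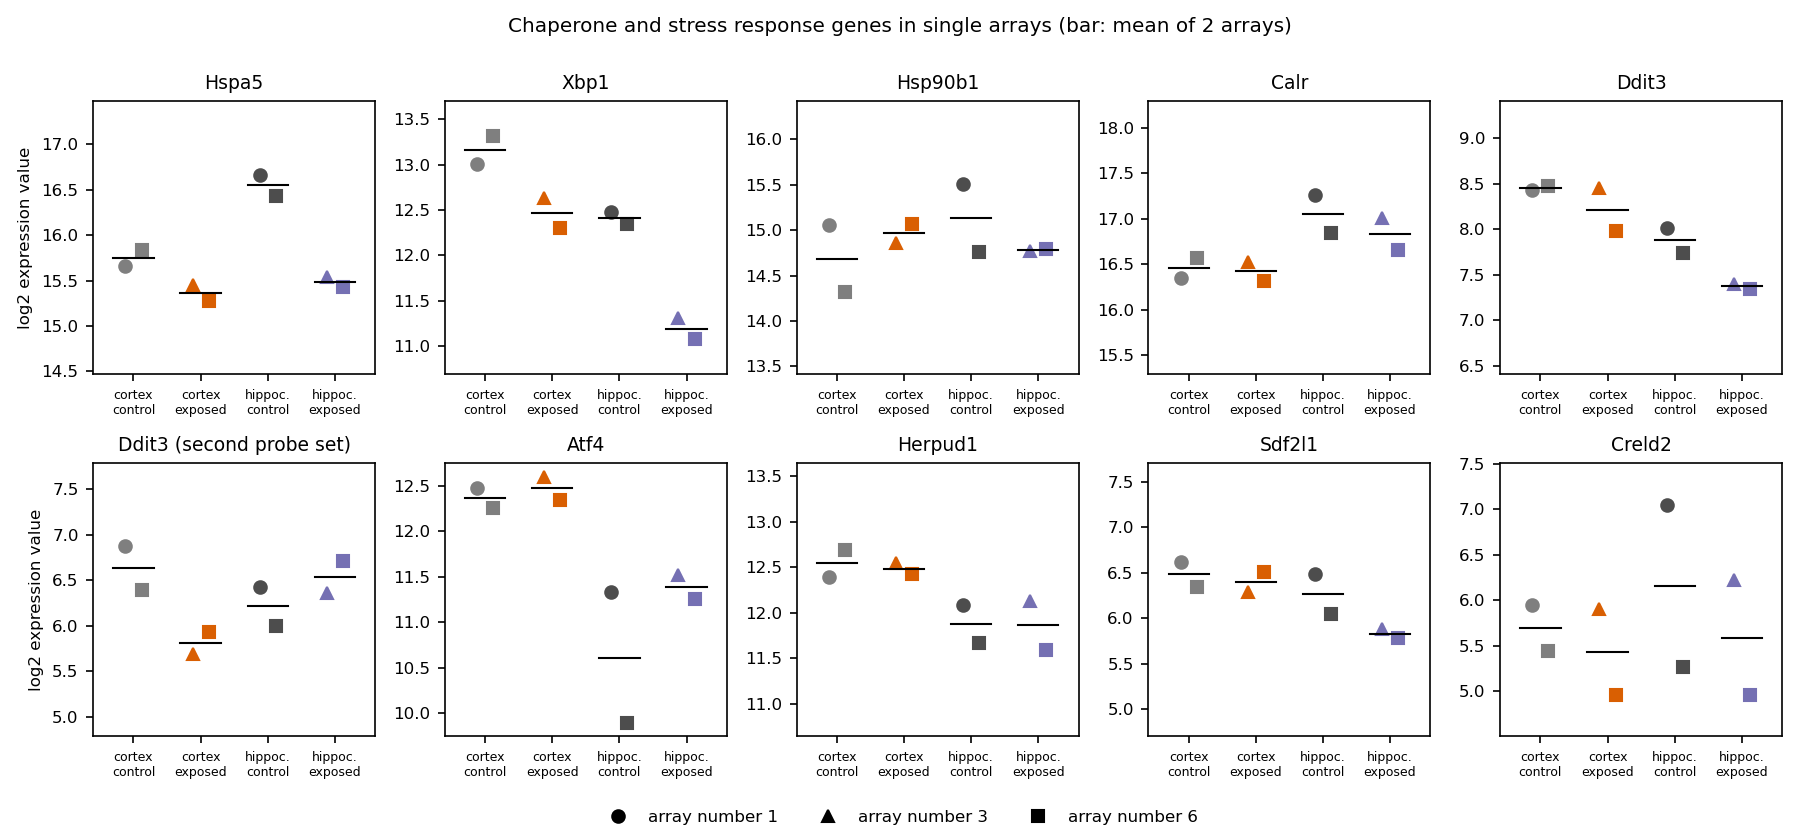
Log2 expression value of each probe set in each of the 8 arrays, by tissue and arm; symbols give the array number and bars the mean of 2 arrays, and each panel spans the same range of log2 units. In Hspa5 and Xbp1 the exposed arrays lie below the controls of the same tissue, and in Atf4 hippocampal control 6 (9.89) lies apart from the other 7 arrays.

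The other lumenal chaperones did not share this separation in both tissues. Hsp90b1, the ER member of the Hsp90 family, read 15.51 and 14.76 in control and 14.77 and 14.79 in exposed hippocampus, and 15.05 and 14.32 in control and 14.86 and 15.07 in exposed cortex. Exposed and control arrays overlapped in both tissues. Its differences were -0.355 in hippocampus and 0.28 in cortex (SE 0.287 for both, limma adjusted p = 0.953 and 0.907), and the hippocampal one was 0.02 without hippocampal control 1. Calr encodes calreticulin, a lectin chaperone that retains glycoproteins during folding and buffers calcium. It read 17.26 and 16.84 in control and 17.01 and 16.65 in exposed hippocampus, and 16.35 and 16.57 in control and 16.52 and 16.32 in exposed cortex. Its arms overlapped in both tissues, with differences of -0.22 and -0.04 (SE 0.216), the hippocampal one being -0.01 without hippocampal control 1.

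Sdf2l1 encodes a soluble cofactor that works with BiP and its J-domain proteins. Hippocampal arrays read 6.48 and 6.04 in controls and 5.88 and 5.78 after exposure; cortical arrays read 6.62 and 6.34 in controls and 6.29 and 6.51 after exposure. The hippocampal arms did not overlap and the cortical arms did. The differences were -0.43 (SE 0.287, limma adjusted p = 0.919; -0.21 without hippocampal control 1) and -0.08. Creld2, a secreted and lumenal protein with disulfide isomerase activity, varied more between arrays of a group than between arms. Its hippocampal values were 7.05 and 5.27 in controls and 6.22 and 4.96 after exposure, and its cortical values 5.95 and 5.44 in controls and 5.91 and 4.96 after exposure. The hippocampal difference of -0.57 had an SE of 0.565 and was 0.32 without hippocampal control 1, which held the highest value of the 8. The cortical difference was -0.26.

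Herpud1 encodes a membrane protein of the complex that sends misfolded proteins to the proteasome. Its controls read 12.08 and 11.67 in hippocampus and 12.39 and 12.69 in cortex, and the exposed arrays 12.13 and 11.59 and 12.54 and 12.42. The arms overlapped in each tissue. The differences were -0.015 in hippocampus (interval -0.58 to 0.55; 0.19 without hippocampal control 1) and -0.06 in cortex (interval -0.62 to 0.50), which include changes in either direction.

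Atf4 encodes the transcription factor whose translation PERK favours. Hippocampal arrays read 11.33 and 9.89 in controls and 11.52 and 11.25 after exposure, and cortical arrays 12.48 and 12.26 in controls and 12.6 and 12.34 after exposure. Arms overlapped in both tissues. The hippocampal difference was 0.775 (SE 0.373, limma adjusted p = 0.853) and rested on 1 array: it was 0.055 without hippocampal control 6 and 1.495 without hippocampal control 1. The cortical difference was 0.1, and -0.01 without cortical control 6.

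Ddit3 encodes CHOP, a factor downstream of ATF4 in the PERK branch. Its mapped probe set read 8.01 and 7.74 in control and 7.4 and 7.34 in exposed hippocampus, and 8.43 and 8.47 in control and 8.45 and 7.98 in exposed cortex. The arms were separated in hippocampus and overlapped in cortex, with differences of -0.505 (SE 0.269, limma adjusted p = 0.876) and -0.235. The second probe set, whose identifier calls it unmapped, read 6.43 and 6.0 in control and 6.36 and 6.71 in exposed hippocampus, and 6.88 and 6.39 in control and 5.69 and 5.93 in exposed cortex. Here the arms were separated in cortex, with a difference of -0.825 (SE 0.306), and overlapped in hippocampus, with 0.32 (0.535 without hippocampal control 1). The 2 probe sets thus disagreed in sign in hippocampus. For the second one the exposure difference between tissues was 1.145 (SE 0.433, unadjusted p = 0.0215, limma adjusted p = 0.998), and for the mapped one -0.27 (SE 0.381).

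**Figure D3:**
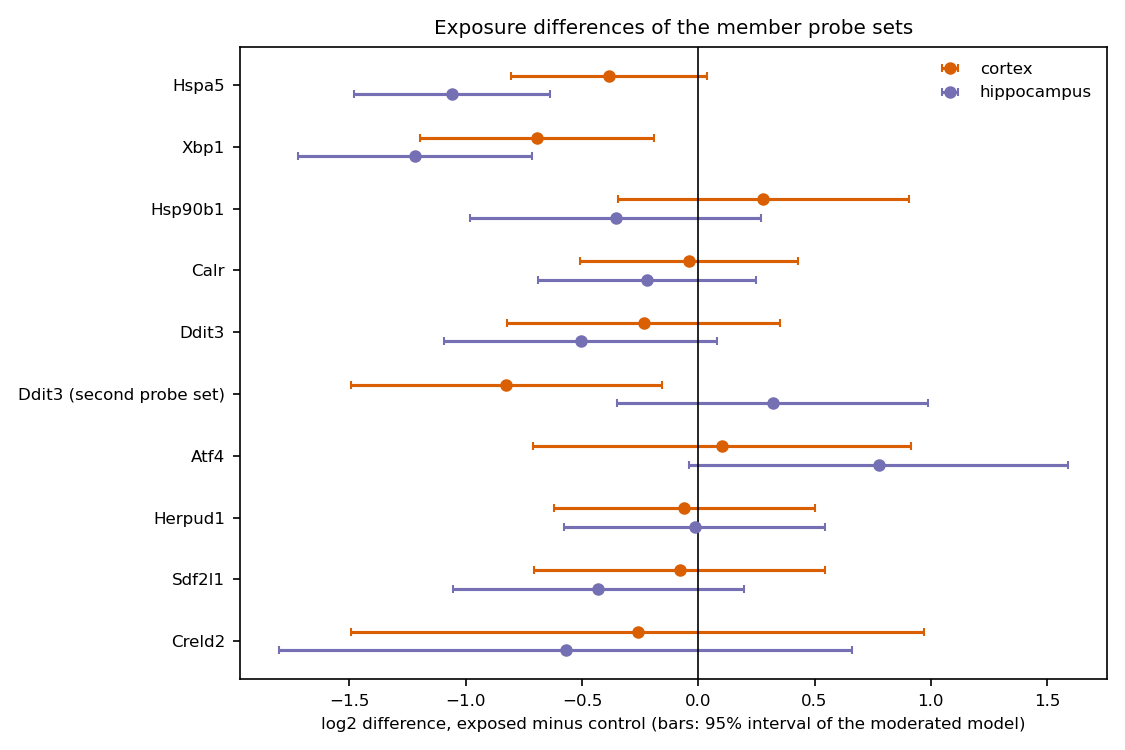
Log2 difference, exposed minus control, for each probe set in cortex and hippocampus, with 95% intervals from the moderated model. The hippocampal intervals of Hspa5 (-1.48 to -0.64) and Xbp1 (-1.72 to -0.72) and the cortical interval of Xbp1 lie below 0, and the 2 Ddit3 probe sets lie on opposite sides of 0 in hippocampus.

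Over the 10 probe sets, all kept by the filter on low values, 8 were lower and 2 higher with exposure in hippocampus, with a median of -0.3925, beside 48.8% lower and a median of 0.005 among all 14804 tested. In cortex 8 were lower and 2 higher, with a median of -0.1575, beside 52.9% lower and -0.025 among all. The members were chosen with earlier results of these data known, so these counts describe the list. None of the 10 was called in either tissue by limma, where 0.00675% of all probe sets were called (1 in each tissue); at an unadjusted p under 0.05 stood 2 of the 10 in hippocampus (of 860 in all) and 2 in cortex (of 915). Both exposed arrays lay below both controls for 4 of the 10 in hippocampus, where 14% of all probe sets did so, for 3 in cortex, where 21.4% did, and for Hspa5 and Xbp1 in both tissues, where 4.17% did. None of the 10 lay above its controls in either tissue, and the share of all probe sets that did so was not counted. Without hippocampal control 1, the hippocampal median of the 10 was 0.005 and 5 were lower, while Hspa5 and Xbp1 were at the values given above. Without exposed cortical array 6, the cortical median was 0 and 4 were lower.

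**Figure D4:**
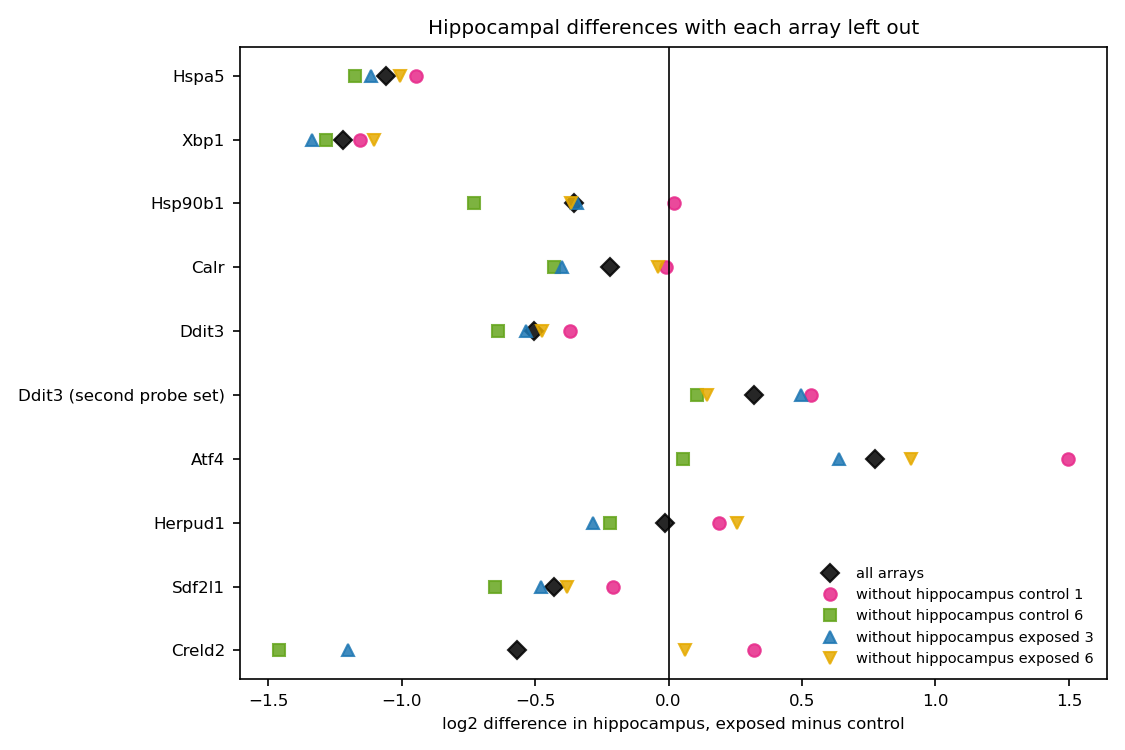
Hippocampal log2 difference, exposed minus control, of each probe set with all arrays and with each hippocampal array left out in turn. Hspa5 ranges from -1.175 to -0.945 and Xbp1 from -1.335 to -1.105, while Hsp90b1, Herpud1 and Creld2 fall on both sides of 0.

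The exposure difference between tissues (hippocampus minus cortex) was below 0 for 7 of the 10 probe sets, with a median of -0.29 beside 0.045 for all probe sets. Of all tested, 0% were called by limma (511 at an unadjusted p under 0.05), including 0 of the 10 (2 at that p, Hspa5 and the second Ddit3 probe set). When exposure was averaged over both tissues, with 2 averaged values per arm, 9 of the 10 were lower and Atf4 higher, with a median of -0.2538 beside -0.005 for all. The averaged difference was -0.7225 for Hspa5 (SE 0.184) and -0.9575 for Xbp1 (SE 0.207), each at a limma adjusted p of 0.805. Among all probe sets 0.00675% were called, and none of the 10 was (2 at an unadjusted p under 0.05, beside 884 in all). The 1 probe set called was a choroid plexus marker, lower in the exposed arm.

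Hippocampus and cortex were compared within each arm on the same arrays. In controls, Hspa5 was higher in hippocampus by 0.795 (SE 0.193, limma adjusted p = 0.0143), while Atf4 and Xbp1 were lower, by -1.76 (SE 0.373, adjusted p = 0.0067) and -0.745 (SE 0.231, adjusted p = 0.0439). These were 3 of the 10 probe sets, and 17.7% of all probe sets were called. Each call ended without 1 or more single arrays, and those of Hspa5 and Xbp1 also without both arrays high in Ttr (0.77, adjusted p = 0.151; -0.66, adjusted p = 0.297). The Hspa5 call ended without cortical control 1 (0.705, adjusted p = 0.126), cortical control 6 (0.885, 0.0592) or hippocampal control 1 (0.68, 0.0746). The Atf4 difference lost its call without cortical control 1 (-1.65, adjusted p = 0.0651), and was -2.48 without hippocampal control 1 and -1.04 without hippocampal control 6. For Xbp1, leaving out any 1 of the 8 arrays ended the call (-0.895 to -0.595, adjusted p = 0.0503 to 0.263), as did no filter on low values, quantile normalization and no mean-variance trend (adjusted p = 0.0529, 0.0523 and 0.0747), so that 5 of 17 alternatives kept it.

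In exposed mice only Xbp1 was called of the 10, where 14.5% of all probe sets were. It was lower in hippocampus by -1.27 (SE 0.231, limma adjusted p = 0.00335), and this held under all 17 alternatives tried (adjusted p up to 0.0404). The Hspa5 tissue difference in exposed mice was 0.12 (SE 0.193, interval -0.30 to 0.54), and -0.02 when each array was centred on its median. Atf4 (-1.085, SE 0.373) and the mapped Ddit3 probe set (-0.845, SE 0.269) missed the threshold narrowly, at limma adjusted p = 0.0739 and 0.0561. The second Ddit3 probe set went the other way, with exposed hippocampus above exposed cortex without overlap by 0.725 (SE 0.306, limma adjusted p = 0.14). Hippocampal controls 1 and 6 do not enter the Atf4 difference, which stayed at -1.085 without either. Only the spread shared by all groups changed there. The Atf4 and mapped Ddit3 differences passed with each array centred on its median (-1.225 and -0.985, limma adjusted p = 0.0435 and 0.0292). They also passed after quantile normalization (-1.183 and -1.025, limma adjusted p = 0.0481 and 0.0243).

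Calr read higher in hippocampus in both arms without overlap, by 0.59 in controls (adjusted p = 0.0809) and 0.41 in exposed mice (adjusted p = 0.232), and the control difference passed after quantile normalization (0.8175, adjusted p = 0.0104). Herpud1 read lower without overlap in both arms, by -0.665 (adjusted p = 0.0982; 0.0447 after median centring, -0.825) and -0.62 (adjusted p = 0.133). All p-values here are limma's. Median tissue differences over all probe sets were 0.1 in controls and 0.125 in exposed mice, and -0.06 and -0.015 after centring each array on its median. Calls lower in hippocampus went from 1129 of 2620 to 1496 of 2537 in controls under that centring, and from 773 of 2143 to 1036 of 2037 in exposed mice.

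The rest of the pathway was followed in 7 lists of other genes, with 117 genes listed, 106 on the array and 100 tested. None of the 100 was called for exposure by limma in either tissue (5 at an unadjusted p under 0.05 in hippocampus and 4 in cortex). In hippocampus 59 were lower and 40 higher, with a median of -0.08, and in cortex 55 were lower and 44 higher, with a median of -0.0225. By list, the hippocampal medians ran from -0.16 for 8 stress sensors and their activating proteases to 0.0025 for 14 genes of ER-associated degradation. In cortex they ran from -0.13 for 13 disulfide isomerases, oxidases and prolyl isomerases to 0.135 for 24 PERK and ATF4 targets.

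**Figure D5:**
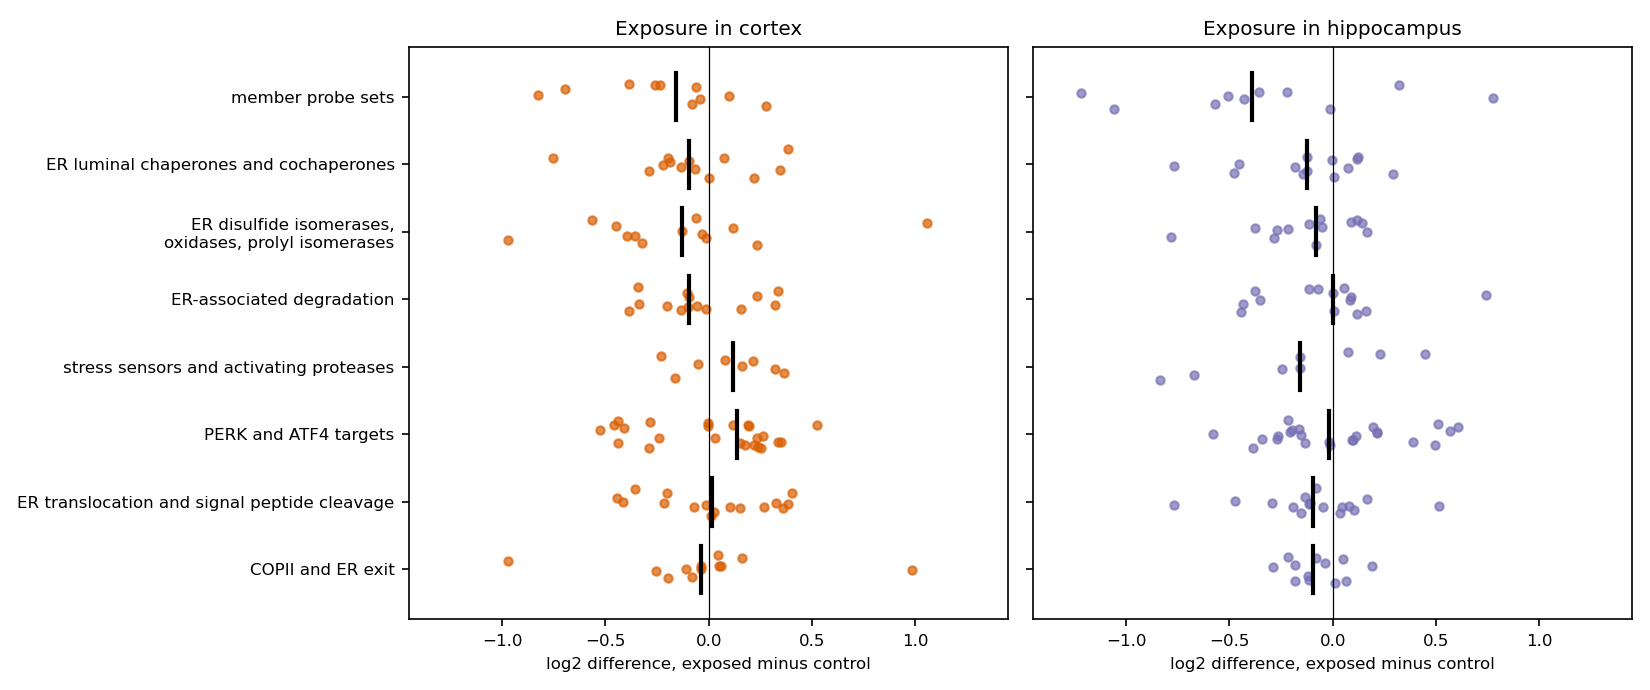
Log2 exposure differences of the 10 probe sets and of the tested genes in 7 lists of the ER folding and stress pathway, in cortex and hippocampus; each point is 1 gene or probe set and the vertical bar is the median. The list medians lie between -0.16 and 0.135, and that of the 10 probe sets is -0.1575 in cortex and -0.3925 in hippocampus (0.005 without hippocampal control 1).

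Spcs2, a subunit of the signal peptidase complex that cleaves proteins entering the ER, had the smallest hippocampal p of the 100. It read 13.21 and 12.97 in control and 12.46 and 12.18 in exposed hippocampus, and 13.19 and 13.04 in control and 12.76 and 12.76 in exposed cortex. Exposed arrays lay below controls in both tissues, as for Hspa5 and Xbp1 and for 4.17% of all probe sets. Its differences were -0.77 (SE 0.217, limma adjusted p = 0.769) and -0.355 (SE 0.217, adjusted p = 0.816). Pdia6, a BiP-associated disulfide isomerase, read 12.19 and 11.14 in control and 11.27 and 10.49 in exposed hippocampus, where the arms overlapped. It read 10.64 and 11 in control and 10.15 and 10.36 in exposed cortex, where they did not; its differences were -0.785 and -0.565 (SE 0.355), and the hippocampal one was -0.26 without hippocampal control 1.

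Other genes were those with the smallest p in each list. In hippocampus, below their controls were the membrane-anchored factor Creb3l2 (-0.835) and the degradation lectin Os9 (-0.435), without overlap. With overlap, lower means were found for Pofut2 (-0.77), Dnajc3 (-0.455), Erp44 (-0.375) and Surf4 (-0.29). Without hippocampal control 1 these were -0.2, -0.24, -0.045 and 0.185, and Creb3l2 was -0.555. Above their controls were the derlin Derl3 (0.745), the transcription factor Cebpb (0.605), the mTORC1 inhibitor Ddit4 (0.57), the translocon-associated subunit Ssr3 (0.515, and 0.81 without hippocampal control 1), the stress sensor Atf6 (0.445) and the cargo receptor Tmed2 (0.19, and 0.125 without that array). Derl3 read 4.09 and 3.89 in control hippocampus, near the filter limit of 3.937. In cortex the gene with the smallest p of each list was Txndc11 (1.06), Sec31a (-0.97), Pofut2 (-0.755), Srp54a (-0.445), Psat1 (-0.44), Creb3 (0.365) or Erlec1 (0.32). None of these passed limma's adjustment.

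Between tissues, calls in the pathway were no more frequent than over all probe sets. In controls 13 of the 100 genes were called, 12 higher and 1 lower in hippocampus, beside the 17.7% of all probe sets, and in exposed mice 7 were called, all higher, beside 14.5%. Sec24d, a coat subunit of the vesicles that leave the ER, read 6.4 and 6.89 in control hippocampus against 3.25 and 3.63 in control cortex, and 6.16 and 6.97 against 4.1 and 4.75 in exposed mice. Its differences were 3.205 and 2.14 (SE 0.367), and both calls held under each of the 16 alternatives that kept it; its mean in control cortex lay under the filter limit of 3.937, so it was not shown to be above background there. Atf3, a stress-induced factor of the ATF4 branch, read 9.12 and 9.36 in exposed hippocampus against 7.28 and 7.77 in exposed cortex, a difference of 1.715 (SE 0.302, limma adjusted p = 0.00274) that held under all 17 alternatives.

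The other calls in controls were Fkbp14 (1.815), Creb3l2 (1.545), Creb3l1 (1.645), Surf4 (1.455), Edem2 (1.285), Txndc11 (1.2), Atf6b (1.095), Tram1 (1.02), Edem1 (0.96), Derl1 (0.87), Tmed10 (0.87) and Fkbp2 (-1.935). In exposed mice they were Fkbp14 (1.66), Surf4 (1.245), Atf6b (1.08), Sec11c (1.055) and Derl1 (0.86). None of these held under every alternative. Of the 13 control calls, 10 ended without cortical control 1, 6 without cortical control 6, 6 without hippocampal control 1, 4 without hippocampal control 6 and 11 without both arrays high in Ttr, with adjusted p of 0.0501 to 0.45. Leaving out either exposed cortical array ended 1, that of Edem1 (adjusted p = 0.0652 and 0.0649). Of the 7 calls in exposed mice, 5 ended without exposed cortical array 3, and 3 each without exposed cortical array 6 or exposed hippocampal array 3 or 6 (adjusted p of 0.0564 to 0.25). Leaving out either cortical control ended those of Sec11c and Surf4 (adjusted p of 0.0502 to 0.0598).

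Genes whose promoter window holds ERSE or ERSE-II were followed as a group defined by sequence. Of 49 such genes 28 were tested, 5 of them described above. None was called for exposure by limma (4 at an unadjusted p under 0.05 in hippocampus and 2 in cortex). Without those 5, 10 were lower and 13 higher in hippocampus, with a median of 0.005, the same as the median of all probe sets, and 13 were lower and 10 higher in cortex, with a median of -0.135. Among them 7 also stood in the pathway lists. In hippocampus these were Pdia6 (-0.785), Dnajb11 (-0.48), Dnajc3 (-0.455), Ero1b (-0.27), Syvn1 (-0.07), Canx (0.005) and Derl3 (0.745). How Dnajb11, Ero1b, Syvn1 and Canx read without hippocampal control 1 is not given. Xbp1, which differed by -1.22, has no match in its window, and Hsp90b1, with 2 matches, differed by -0.355 (0.02 without hippocampal control 1). Whether the element has a part in these differences was not tested. The 80 tested genes with the C/EBP-ATF element had medians of 0.1075 in hippocampus and -0.05 in cortex.

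The array profiles of Hspa5 and Xbp1 were compared with those of all other tested genes after centring each on its tissue means, by root mean square distance in log2 units over the same 8 arrays. Their distance to each other was 0.139. Nearest to Hspa5 were Inhba (0.0884), Olfr384 (0.122), Wdcp (0.134), Zfp598 (0.144) and Spcs2 (0.145), and nearest to Xbp1 were Itgbl1 (0.137), Imp4 (0.139), Scnm1 (0.149), Gstm6 (0.165) and Inhba (0.17). Inhba, which encodes a subunit of activins and stood on both lists, read 7.03 and 7.04 in control and 6.04 and 6.05 in exposed hippocampus, and 7.17 and 7.55 in control and 7.1 and 6.93 in exposed cortex. Its exposed arrays lay below its controls in both tissues, with differences of -0.99 and -0.345 (limma adjusted p = 0.769 and 0.867). These genes were selected for their likeness over all 8 arrays, so their differences are a description. Zfp598 in exposed hippocampal array 6 (3.81) lay under the filter limit of 3.937. So did Gstm6 (3.79) and Itgbl1 (3.64) in exposed cortical array 6.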

How the data were processed

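Total RNA was turned into biotin-labelled cDNA with GeneChip WT reagents, per the labels' protocols. The authors deposited 1 table of log2 values per probe set, and RMA is named in the submitters' processing notes; the sources used here give neither its version nor its summary level. Log base 2 is not stated in the table and was taken from what RMA usually returns and from the range of values, 1.59 to 19.93. Gene symbols came from GEO's platform annotation, and gene positions and promoter sequences from RefSeq on GRCm38.p6.

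The lowest 33.3% of probe sets by mean over all arrays (limit 3.937) were left out. A mean per tissue and arm was fitted with limma 3.58.1 in R 4.3.3 (lmFit, eBayes with trend; degrees of freedom 4 residual, 7.918 prior), two-sided, with Benjamini-Hochberg adjustment over the 14804 probe sets of each comparison. Averaged exposure was fitted to means of arrays with the same arm and number. The fit was tested on simulated data. The members and lists were chosen with earlier results of these data known. Named genes were the members; from each pathway list those past the threshold, else the 2 smallest p in hippocampus and the 1 in cortex; the 5 profiles nearest to Hspa5 and to Xbp1; and Ttr. Inhba, Spcs2 and Pdia6 were picked from these for their array values after those were seen, as were the pathway genes with a promoter match. Alternatives were no filter, a stricter filter, quantile normalization, median centring, no trend, array weights, replicate blocks and arrays left out.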

Additional observations from a re-analysis of the deposited data

How the results depend on the processing

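Hspa5 and Xbp1 kept their direction with exposure in both tissues under all 16 alternatives, and neither passed the adjusted threshold in any. In hippocampus Hspa5 ranged from -1.175 to -0.945 and Xbp1 from -1.335 to -1.105. Leaving out arrays could not turn either sign, since both exposed arrays lay below both controls in each tissue. The filters, the trend, array weights and the random replicate block left the differences as they were, so those settings did not test the direction. With 2 arrays per group and no background reading per probe set, small differences of single genes could not be resolved, and where a value moved the cause was not tested.

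Counts of probe sets called for exposure in cortex were 0 with quantile normalization or without the trend, 2 with array weights and 3 without both arrays high in Ttr; in hippocampus they were 0 under each of these 4. With 1 array left out they ran from 0 to 2 in cortex, 0 to 56 in hippocampus (56 without hippocampal control 6), 0 to 30 for the difference between tissues, 1289 to 2532 for tissue in controls and 1074 to 2440 in exposed mice, and with 1 number of an arm left out from 1 to 26 for the average. Leaving out 1 array moved the number of the 10 probe sets that were lower to between 4 and 8 in cortex and between 5 and 8 in hippocampus, with medians from -0.305 to 0 in cortex and from -0.645 to 0.005 in hippocampus.

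Without both arrays high in Ttr, the hippocampal median of the 10 was 0.005 with 5 lower, that of the difference between tissues 0.055 with 4 lower, and that of tissue in controls -0.67 with 1155 probe sets called. Signs turned there in cortex for Hsp90b1 (-0.085), Calr (0.07), Atf4 (-0.01) and Herpud1 (0.09), in hippocampus for Hsp90b1 (0.02), Herpud1 (0.19), Creld2 (0.32) and Surf4 (0.185), in the difference for Hsp90b1 (0.105), Sdf2l1 (0.01) and Creld2 (0.835), and in control tissues for Hsp90b1 (-0.29) and Creld2 (-0.68). The averaged comparison was not run this way, since each control number would lose an array. Quantile normalization turned cortical Calr (0.0753) and Herpud1 (0.0075) and the difference for Herpud1 (-0.0563), and median centring turned the exposed tissue difference of Hspa5 (-0.02).

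With 1 array left out, ranges that crossed 0 were, in cortex, Hsp90b1 -0.085 to 0.645, Calr -0.15 to 0.07, Atf4 -0.03 to 0.23, Herpud1 -0.21 to 0.09, Sdf2l1 -0.22 to 0.06 and Creld2 -0.735 to 0.215. In hippocampus they were Hsp90b1 -0.73 to 0.02, Herpud1 -0.285 to 0.255, Creld2 -1.46 to 0.32 and Surf4 -0.765 to 0.185, and for the difference Calr -0.39 to 0.03, Atf4 -0.045 to 1.395, Herpud1 -0.225 to 0.315 and Creld2 -1.2 to 0.58. For the average they were Hsp90b1 -0.4075 to 0.3325, Calr -0.27 to 0.01, Herpud1 -0.2025 to 0.1275 and Creld2 -0.9875 to 0.1575 (0.1375 without exposed number 6), and for tissue Creld2 -0.425 to 1.355 in controls and -0.475 to 0.785 in exposed mice.

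In the comparisons within a tissue and between tissues the replicate numbers were not taken to pair the samples. The labels do not state whether same-numbered arrays share a mouse. Their deviations correlated at -0.0009 in controls and 0.276 in exposed mice. With 2 arrays per group this gives 1 value per arm, which cannot settle the pairing. The averaged comparison joined arrays by number in case they share a mouse. A random replicate block by arm and number (consensus correlation 0.19) gave 2 calls in cortex, 1 in hippocampus, 3 for the difference between tissues and 0 for averaged exposure, and single arrays with no replicate block gave 0 for the average. A fixed replicate block gave 1 call for the difference. Tissue calls were 3426 in controls and 2902 in exposed mice under the random block, and 3433 and 2835 under the fixed block. With no block they were 2620 and 2143. Under the random and fixed block the tissue differences of Calr in controls (adjusted p = 0.0448 and 0.0283) and of Ddit3 (0.0298 and 0.044) and Atf4 (0.0364 and 0.0123) in exposed mice passed, and under the fixed block that of Herpud1 in controls (0.0478).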
